A study of Mus musculus with 16 samples.

Results

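The 10 genes described here are transcriptional targets of the tumour suppressor p53, chosen by name from the 13701 genes counted in the series: Cdkn1a, Mdm2, Pmaip1, Bbc3, Bax, Ccng1, Zmat3, Aen, Perp and Polk. All 10 were found in the count table. The samples were 16 total-RNA libraries of frozen bulk tissue from male C57BL6/J mice aged 12 to 14 weeks, with 4 libraries each of Yap1S5A liver, GFP liver, Yap1S5A quadriceps and GFP quadriceps. The Yap1S5A groups carried the genotype AAV-DJ8-TGB-Yap1S5A, an adeno-associated virus with a form of the Hippo pathway coactivator Yap1 that escapes inhibitory phosphorylation, and the GFP groups the genotype AAV-DJ8-TGB-EGFP, the same kind of virus for green fluorescent protein. Both tissues were taken at day 7 after the virus. The series design calls the expression hepatic, so quadriceps is a tissue outside the intended site, and all groups, GFP included, had been given a virus. The labels do not explain TGB, and they do not say which cells of the bulk tissue the virus reached. All samples also carry a treatment text about partial hepatectomy with sham controls, at odds with their titles, genotypes and the series design, and groups were taken from the titles.

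p53 is a transcription factor that is held low in unstressed cells by the ubiquitin ligase Mdm2 and is released by DNA damage, oncogene activity and ribosomal stress. It binds a response element made of a pair of half-sites and raises genes that stop the cell cycle, open the mitochondrial route to apoptosis, act in DNA repair, or, like Mdm2 itself, feed back on p53. In liver, p53 targets are known to respond to injury and to changes in ploidy, and several of them are also controlled without p53.

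Total counts per library were 15743520 to 16491679 in Yap1S5A livers, 13817718 to 15589362 in GFP livers, 15696665 to 19215472 in Yap1S5A quadriceps and 15711242 to 16897004 in GFP quadriceps. Albumin ranged over 95644 to 123632 CPM in liver and 11.9 to 113 CPM in quadriceps libraries, and the muscle actin Acta1 over 2.05 to 52.1 CPM in liver and 30158 to 43186 CPM in quadriceps libraries. CPM are read counts scaled to library size by trimmed mean of M-values (TMM). Yap1 averaged 51.5 ± 3.48 CPM in Yap1S5A livers, against 75.3 ± 4.81 CPM in GFP livers (SD, n = 4 each), so the gene was lower where the label names its vector. The labels do not give the species of the Yap1S5A sequence or its untranslated parts, so this count may not read the vector and does not check the labels. The liver groups are therefore called Yap1S5A-labelled and GFP-labelled, and every liver direction rests on those labels. The 30 cell cycle genes summed to between 417 and 517 CPM in Yap1S5A-labelled livers against 32.3 to 41.2 CPM in the GFP-labelled ones, and all 30 rose. Only 12 of these 30 passed the filter on low counts in the GFP liver and quadriceps comparison, so most could hardly be called lower. The 12 macrophage markers summed to between 2109 and 2359 CPM in Yap1S5A-labelled livers and between 123 and 229 CPM in GFP-labelled livers, and all 12 rose. The 5 bile duct markers summed to between 1248 and 1633 CPM in Yap1S5A-labelled livers against 31.3 to 55.3 CPM in GFP-labelled livers. Only 2 of the 5 rose in edgeR, and DESeq2 and an unadjusted p under 0.05 each gave 3 higher. The median log2 fold change of the 5 was 1.18, so the sum does not stand for each marker. The 8 endothelial markers summed to between 396 and 483 CPM in Yap1S5A-labelled livers against 158 to 188 CPM in GFP-labelled livers, and all 8 rose. The 8 stellate cell and fibroblast markers summed to between 830 and 1213 CPM in Yap1S5A-labelled livers against 215 to 355 CPM in GFP-labelled livers, with 5 higher and 1 lower. The 10 hepatocyte markers summed to between 136232 and 156340 CPM in Yap1S5A-labelled livers and between 137942 and 156456 CPM in GFP-labelled livers, a sum that is mostly albumin. Of these 10, 5 fell and 0 rose, in edgeR and at an unadjusted p under 0.05 (DESeq2 called 6 lower and 0 higher), with a median log2 fold change of -0.49. Apoa1, an apolipoprotein of hepatocytes, was at 4451 to 6463 CPM in Yap1S5A-labelled livers and 7740 to 9949 CPM in GFP-labelled livers. Among all 12818 genes tested in liver, 33.3% were called higher and 30.3% lower. The part of these cell markers in the results that follow was not tested, and in bulk tissue fewer cells of a type and less RNA per cell cannot be told apart.

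The start regions of the members show where p53 half-sites lie next to these genes. The search used the p53 half-site consensus of 10 letters, which reads the same on both strands, in RefSeq windows (build GRCm38.p6) from 250 bases before to 50 bases after each annotated start. Of the 10 members 7 had such a window (Pmaip1, Zmat3 and Perp had none), and 6 of these 7 held a half-site, all but Bbc3. Among the 9811 genes tested in liver that had a window, 815 held a half-site (8.31%). A full element, with a pair of half-sites no more than 13 bases apart, was found in the windows of 5 of the 9811 genes (0.051%), and Cdkn1a was the member that had it. The members were picked as p53 targets, so these shares describe the choice. A match is a run of letters, not a bound site. In the stretches below, each 5′ to 3′ on the gene's strand, capitals mark the half-sites.
Cdkn1a: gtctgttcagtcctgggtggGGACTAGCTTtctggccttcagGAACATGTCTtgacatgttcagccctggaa
Mdm2: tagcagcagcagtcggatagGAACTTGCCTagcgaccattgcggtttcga
Ccng1: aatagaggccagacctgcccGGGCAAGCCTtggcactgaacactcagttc
Bax: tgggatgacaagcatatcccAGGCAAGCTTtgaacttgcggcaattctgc
Polk: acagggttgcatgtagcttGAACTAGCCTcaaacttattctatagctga
The Cdkn1a stretch (chr17:29090886-29090957, plus strand) has half-sites that begin 73 and 51 bases before a start at the upstream end of the gene model. Cdkn1a had 2 windows, so this need not be its main start. The Mdm2 stretch (chr10:117710915-117710964, minus strand) has its half-site 186 bases before the start, the Ccng1 stretch (chr11:40755442-40755491, minus strand) 185 bases before it, and the Bax stretch (chr7:45467070-45467119, minus strand) 201 bases before it. The Polk stretch (chr13:96519389-96519437, minus strand) lies 231 bases before an alternative start inside the Polk gene model. The stretch around the half-site of Aen overlaps an annotated exon and is not shown.

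The first comparison asked how the p53 targets stood in Yap1S5A-labelled livers against GFP-labelled livers. They did not move together: Pmaip1, Zmat3 and Polk rose, Mdm2, Ccng1, Aen and Perp fell, and Cdkn1a, Bbc3 and Bax did not pass edgeR's quasi-likelihood test at an adjusted p of 0.05. That is 7 of 10 members called, where 63.6% of the 12818 genes tested were called (33.3% higher and 30.3% lower), so the share is near the background. The groups did not overlap in CPM for 5 of the 10 members, Mdm2, Pmaip1, Zmat3, Aen and Polk, against 57.4% of all genes tested. The median log2 fold change was -0.33 over the members and 0.03 over all genes tested. Pmaip1 passed the filter on low counts through the Yap1S5A-labelled livers, so it could hardly be called lower.

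**Figure D1:**
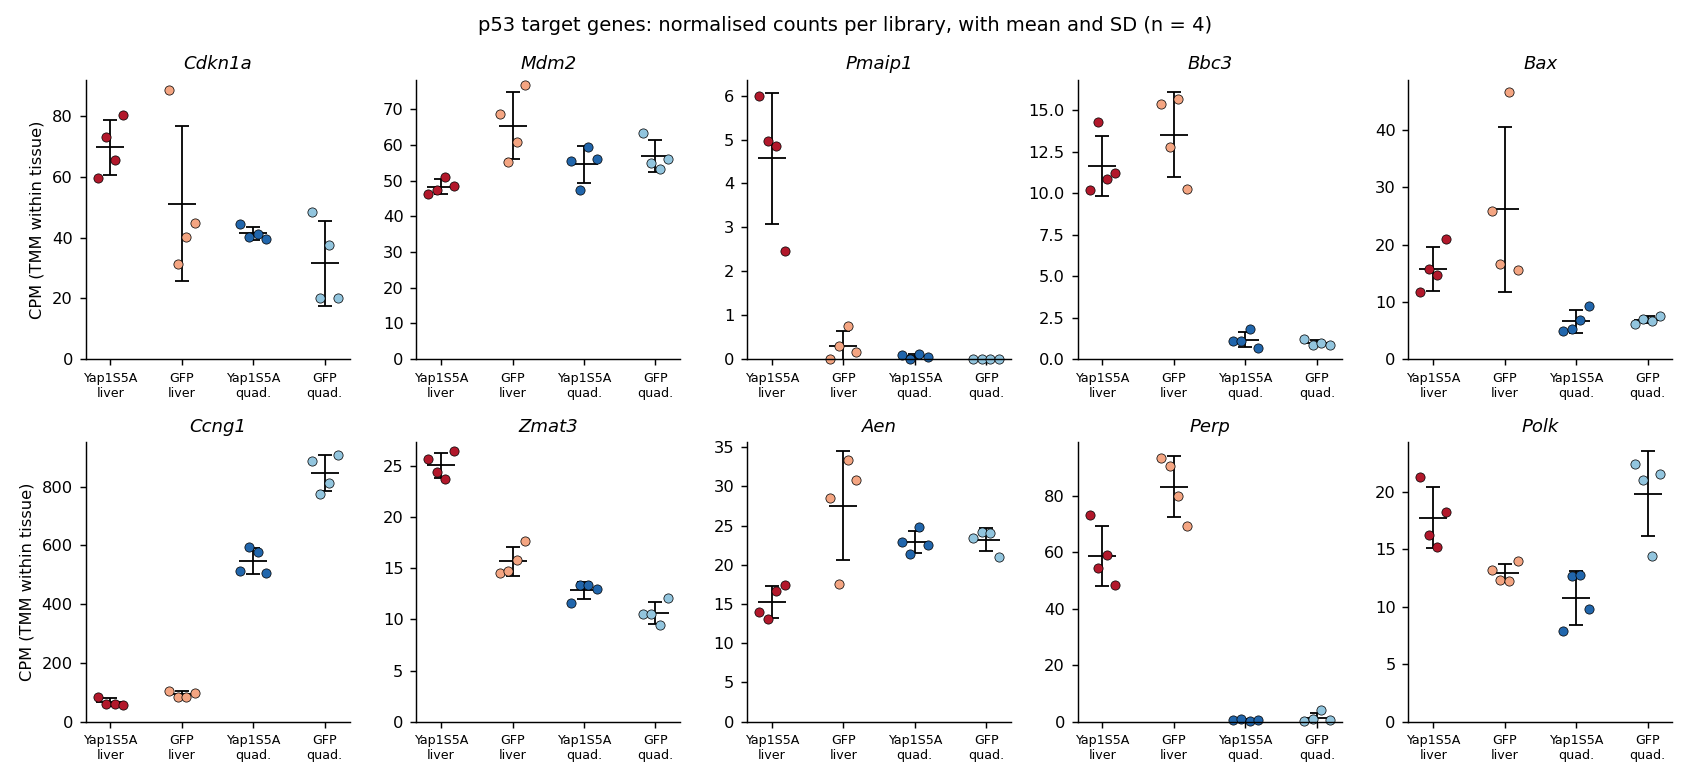
CPM of the 10 p53 target genes (vertical axes, TMM within each tissue, so values compare within a tissue) in each library, by group from Yap1S5A liver to GFP quadriceps. Points are libraries, the short line is the mean and the bars are the SD (n = 4). Pmaip1 lies between 2.47 and 5.99 CPM in Yap1S5A-labelled livers and at 0.762 CPM or less in GFP-labelled livers.

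Among the genes of cell cycle arrest and p53 feedback, Mdm2 and Ccng1 fell in liver and Cdkn1a was not called. Cdkn1a (chromosome 17, 29090986 to 29100722, mm10, plus strand, 4 exon segments) encodes p21, an inhibitor of cyclin-dependent kinases. It stood at 59.7, 73.3, 65.7 and 80.6 CPM in Yap1S5A-labelled livers, against 88.5, 31.2, 40.4 and 44.8 CPM in GFP-labelled livers. The highest of the 8 values was GFP-labelled replicate 1, and the other 3 GFP-labelled livers lay below all 4 Yap1S5A-labelled livers. The log2 fold change was 0.45 ± 0.27 (estimate ± SE throughout) with an edgeR adjusted p of 0.160. Without GFP-labelled liver replicate 1 it was 0.85 with an edgeR adjusted p of 0.000679, so that library decides the call.

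Mdm2 (chromosome 10, 117688875 to 117710758, minus strand, 12 exon segments) encodes the ligase that marks p53 for degradation and is itself a p53 target. It stood at 46.4, 47.4, 51.0 and 48.6 CPM in Yap1S5A-labelled livers, against 68.6, 55.2, 60.9 and 76.8 CPM in GFP-labelled livers. Every Yap1S5A-labelled liver was below every GFP-labelled liver, and Mdm2 fell with a log2 fold change of -0.44 ± 0.13 (edgeR adjusted p = 0.00863). The call held in all 16 alternative analyses, with log2 fold changes from -0.54 to -0.35. Summed Mdm2 reads were 3593 in Yap1S5A-labelled and 3373 in GFP-labelled livers, so the fall rests on the scaling. TMM factors were 1.12 to 1.20 in Yap1S5A-labelled and 0.826 to 0.891 in GFP-labelled livers. Every alternative used scaling of this kind and none used total counts alone, so this dependence was not tested.

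Ccng1 (chromosome 11, 40748552 to 40755286, minus strand, 6 exon segments) encodes cyclin G1, which is known to bring the phosphatase PP2A to Mdm2. It stood at 85.5, 60.7, 60.8 and 58.0 CPM in Yap1S5A-labelled livers, against 105.8, 85.6, 82.7 and 97.8 CPM in GFP-labelled livers. Replicate 1 of the Yap1S5A-labelled livers stood apart from its group and lay within the range of the GFP-labelled livers. Ccng1 fell with a log2 fold change of -0.49 ± 0.15 (edgeR adjusted p = 0.0108), and the call held in all 16 alternatives. Its summed reads were 4910 in Yap1S5A-labelled and 4810 in GFP-labelled livers, so this fall also rests on the scaling.

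The 5 members of the apoptotic arm divided in liver: Pmaip1 rose, Aen and Perp fell, and Bbc3 and Bax were not called. Pmaip1 (chromosome 18, 3 exon segments) encodes Noxa, a BH3-only protein that neutralises Mcl1. It had 108, 94, 89 and 47 reads in Yap1S5A-labelled livers, against 0, 4, 10 and 2 reads in GFP-labelled livers. In CPM these were 5.99, 4.96, 4.86 and 2.47 in Yap1S5A-labelled livers and 0, 0.293, 0.762 and 0.164 in GFP-labelled livers, where a count of 0 allows up to 0.233 CPM in that library, for counting error only. The lowest Yap1S5A-labelled liver was above the highest GFP-labelled liver. The log2 fold change was 3.86 ± 0.54 (edgeR adjusted p = 2.21e-05), the largest among the members, and rests on 16 reads in all GFP-labelled livers. Pmaip1 did not pass the filter on low counts in the GFP liver and quadriceps comparison. It thus entered the liver test through the Yap1S5A-labelled livers and could hardly be called lower. Its call held in all 16 alternatives, with log2 fold changes from 3.45 to 4.81.

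Bbc3 (chromosome 7, 16309583 to 16318334, plus strand, 4 exon segments) encodes Puma, the other p53-induced BH3-only protein of the list. It stood at 10.2, 14.3, 10.9 and 11.2 CPM in Yap1S5A-labelled livers, against 15.4, 12.8, 15.7 and 10.3 CPM in GFP-labelled livers. The groups overlapped, with a log2 fold change of -0.22 ± 0.17 and an edgeR adjusted p of 0.288. Bax (chromosome 7, 45461695 to 45466898, minus strand, 6 exon segments) encodes the pore-forming effector of the mitochondrial outer membrane. It stood at 11.8, 15.7, 14.7 and 20.98 CPM in Yap1S5A-labelled livers, against 25.9, 16.5, 46.7 and 15.5 CPM in GFP-labelled livers. The groups overlapped and GFP-labelled replicate 3 was the highest. The log2 fold change was -0.73 ± 0.33 with an edgeR adjusted p of 0.0713. DESeq2 gave an adjusted p of 0.0295, and edgeR over all 16 libraries 0.0285. Leaving out GFP-labelled replicate 2 (edgeR adjusted p = 0.0326) or replicate 4 (edgeR adjusted p = 0.0188) also moved it past the threshold. Without GFP-labelled replicate 3, its highest library, the value was -0.29 with an edgeR adjusted p of 0.258. Bax shares 192 exonic bases on the same strand with the readthrough gene Gm45808, so its reads are uncertain.

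Aen (chromosome 7, 78895927 to 78908833, plus strand, 4 exon segments) encodes a nuclease that is known to promote apoptosis after DNA damage. It stood at 14.0, 13.1, 16.6 and 17.4 CPM in Yap1S5A-labelled livers, against 28.5, 17.5, 33.4 and 30.8 CPM in GFP-labelled livers. The groups did not overlap, although Yap1S5A-labelled replicate 4 and GFP-labelled replicate 2 lay next to each other. Aen fell with a log2 fold change of -0.85 ± 0.19 (edgeR adjusted p = 0.00120), and the call held in all 16 alternatives with log2 fold changes from -1.02 to -0.74. Perp (chromosome 10, 18845071 to 18857072, plus strand, 3 exon segments) encodes a membrane protein of desmosomes that p53 induces during apoptosis. It stood at 73.2, 54.4, 59.1 and 48.4 CPM in Yap1S5A-labelled livers, against 93.5, 90.5, 80.0 and 69.6 CPM in GFP-labelled livers. Only Yap1S5A-labelled replicate 1 reached into the range of the GFP-labelled livers. Perp fell with a log2 fold change of -0.50 ± 0.15 (edgeR adjusted p = 0.00920). The call was lost when all 16 libraries shared a fit (edgeR adjusted p = 0.209). Summed Perp reads were 4355 in Yap1S5A-labelled and 4338 in GFP-labelled livers, so this fall too rests on the scaling.

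The 2 remaining members rose in liver. Zmat3 (chromosome 3, 32334794 to 32365665, minus strand, 6 exon segments) encodes a zinc finger protein that binds RNA and affects splicing. It stood at 25.7, 24.4, 23.7 and 26.4 CPM in Yap1S5A-labelled livers, against 14.5, 14.7, 15.8 and 17.7 CPM in GFP-labelled livers. The groups were far apart relative to their spread, with a log2 fold change of 0.68 ± 0.13 (edgeR adjusted p = 0.000332). Polk (chromosome 13, 96480689 to 96542485, minus strand, 15 exon segments) encodes a DNA polymerase that copies past damaged bases. It stood at 21.2, 16.3, 15.2 and 18.2 CPM in Yap1S5A-labelled livers, against 13.2, 12.3, 12.3 and 14.0 CPM in GFP-labelled livers. The groups did not overlap, with a log2 fold change of 0.46 ± 0.15 (edgeR adjusted p = 0.0142). Without Yap1S5A-labelled replicate 1 the Polk value was 0.32 with an edgeR adjusted p of 0.0620.

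Gene length moved with the liver comparison, and 3 liver calls of members depended on it. Over 12818 genes, exonic length and the liver log2 fold change had a Spearman rho of 0.321, given as a description across genes of the same libraries. Zmat3, with 7782 exonic bases, and Polk, with 4226, are the longest members by exon, and Bax, with 869, is the shortest. With the length trend taken out, Zmat3 stood at a log2 fold change of 0.21 (edgeR adjusted p = 0.155), Polk at 0.19 (0.253) and Perp at -0.27 (0.120), and Bax moved to 0.03 (0.922). Pmaip1, Mdm2, Ccng1 and Aen kept their calls with the trend taken out.

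**Figure D2:**
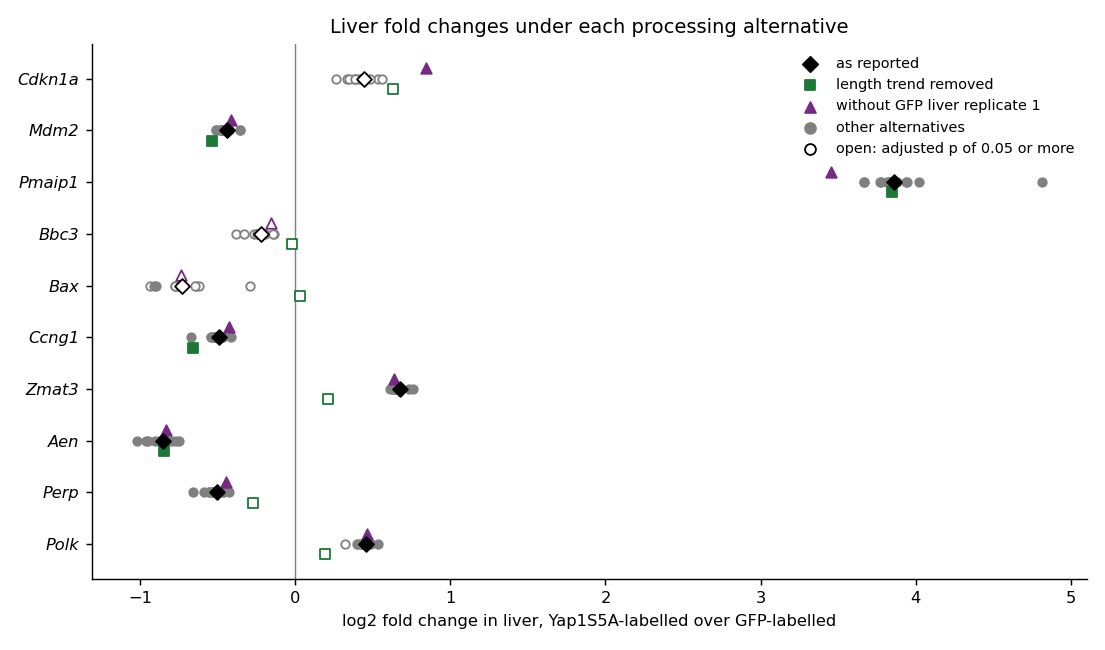
Log2 fold change of each p53 target in Yap1S5A-labelled over GFP-labelled livers (horizontal axis) as reported and in 16 alternative analyses. Filled symbols have an adjusted p under 0.05. Cdkn1a is filled without GFP-labelled liver replicate 1, at 0.85, and Zmat3, Perp and Polk are open once the length trend is removed, at 0.21, -0.27 and 0.19.

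The second comparison asked the same of quadriceps, which lies outside the hepatic expression named in the design. In Yap1S5A-labelled quadriceps Ccng1 and Polk fell, no member rose, and Cdkn1a, Mdm2, Bbc3, Bax, Zmat3, Aen and Perp were not called. That is 2 of the 9 members tested, where 9.03% of 12121 genes were called (4.21% higher and 4.82% lower). At an unadjusted p under 0.05, 1 member was higher, Zmat3, and DESeq2 called 0 members higher. The groups did not overlap for Ccng1 and Polk, against 15.5% of all genes tested. The median log2 fold change was -0.05 over the members and 0.00493 over all genes tested. Macrophage markers were also higher here, 9 of the 10 tested, with sums between 197 and 355 CPM in Yap1S5A-labelled quadriceps and between 75.0 and 131 CPM in GFP-labelled quadriceps. The 10 skeletal muscle markers summed to between 163899 and 203157 CPM in Yap1S5A-labelled quadriceps and between 224336 and 258904 CPM in GFP-labelled quadriceps. Of these 10, 2 fell and 0 rose, in edgeR, in DESeq2 and at an unadjusted p under 0.05, with a median log2 fold change of -0.18.

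Ccng1 stood at 513, 594, 578 and 507 CPM in Yap1S5A-labelled quadriceps, against 886, 775, 814 and 908 CPM in GFP-labelled quadriceps. The groups were well apart, with a log2 fold change of -0.63 ± 0.09 (edgeR adjusted p = 0.00131). Polk stood at 7.91, 12.7, 12.8 and 9.76 CPM in Yap1S5A-labelled quadriceps, against 22.4, 20.97, 14.4 and 21.6 CPM in GFP-labelled quadriceps. The groups did not overlap, with GFP-labelled replicate 3 the lowest of its group, and the log2 fold change was -0.89 ± 0.17 (edgeR adjusted p = 0.00759). Both calls held in all 16 alternatives.

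Of the members not called in quadriceps, Cdkn1a stood at 44.4, 40.2, 41.3 and 39.7 CPM in Yap1S5A-labelled quadriceps, against 48.4, 20.2, 37.7 and 20.01 CPM in GFP-labelled quadriceps. As in liver, GFP-labelled replicate 1 was the highest library, the GFP-labelled values were the more spread, and the log2 fold change was 0.39 ± 0.29 (edgeR adjusted p = 0.483). Zmat3 stood at 11.6, 13.4, 13.3 and 13.02 CPM in Yap1S5A-labelled quadriceps, against 10.6, 10.5, 9.42 and 12.0 CPM in GFP-labelled quadriceps. It had a log2 fold change of 0.27 ± 0.12, an unadjusted p of 0.0402 and an edgeR adjusted p of 0.189. Mdm2 and Aen lay close to 0, at log2 fold changes of -0.06 ± 0.10 and -0.02 ± 0.09. Bax was at -0.05 ± 0.19 and Bbc3, on 13 to 29 reads a library, at 0.25 ± 0.35.

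Perp and Pmaip1 were barely detected in quadriceps. Perp had 14, 16, 5 and 14 reads in Yap1S5A-labelled quadriceps, against 2, 15, 62 and 9 reads in GFP-labelled quadriceps. GFP-labelled replicate 3 alone held most of the reads of its group. The log2 fold change was -1.01 ± 0.84 (edgeR adjusted p = 0.528), and without that library it was 0.38. Pmaip1 had 2, 0, 2 and 1 reads in Yap1S5A-labelled quadriceps and 0 reads in all 4 GFP-labelled quadriceps, where a count of 0 allows up to 0.174 to 0.199 CPM per library. It was not tested there, and no difference was detectable at this depth.

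**Figure D3:**
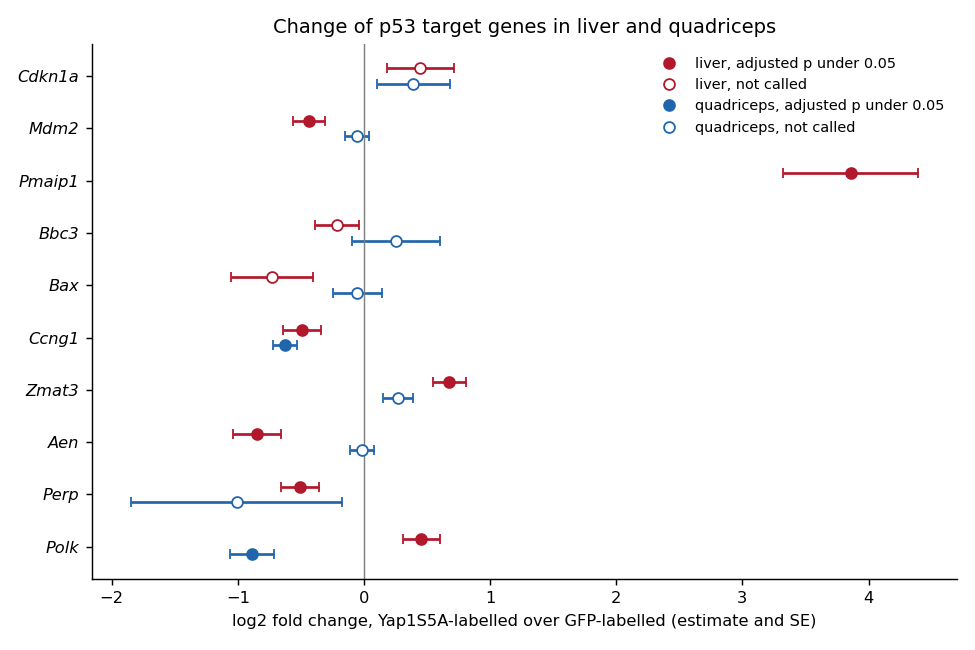
Log2 fold change of each p53 target in Yap1S5A-labelled over GFP-labelled libraries (horizontal axis, estimate and SE), in liver and in quadriceps. Filled points have an adjusted p under 0.05. Polk lies at 0.46 in liver and -0.89 in quadriceps, Ccng1 is below 0 in both tissues, and Pmaip1 was not tested in quadriceps.

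Whether the vector difference itself differed between tissues was tested as an interaction over all 16 libraries. It was called for Polk, Aen and Zmat3, 3 of the 10 members, where 48% of 13669 genes were called (25.5% higher and 22.5% lower). For Polk the liver log2 fold change exceeded that in quadriceps by 1.33 ± 0.23 (edgeR adjusted p = 0.000103), with values from 0.90 to 1.48 over 23 alternatives and every call kept. For Aen the liver value was lower by 0.84, an interaction of -0.84 ± 0.22 (edgeR adjusted p = 0.00432), also called in all 23 alternatives. For Zmat3 the interaction was 0.40 ± 0.16 with an edgeR adjusted p of 0.0481. It was called in 8 of 23 alternatives, was lost in 10 of the 16 that left out a library, and stood at -0.20 (edgeR adjusted p = 0.347) with the length trend removed. For Ccng1, which fell in both tissues, the interaction was 0.13 ± 0.21 (edgeR adjusted p = 0.652). For Mdm2 it was -0.38 ± 0.16 (edgeR adjusted p = 0.0599), and DESeq2 gave -0.49 with an adjusted p of 0.0103. Mdm2 was also called when Yap1S5A-labelled liver replicate 1 or 2 or GFP-labelled liver replicate 2 was left out. Cdkn1a was at 0.05 ± 0.42, Perp at 0.49 ± 0.75, Bax at -0.67 ± 0.41 and Bbc3 at -0.47 ± 0.35, all not called. Pmaip1 was too low in quadriceps for its interaction to be read. Removing the length trend also changed the split of all calls, with 2592 higher and 4225 lower, against 3481 higher and 3075 lower as reported, and moved the median of all genes to -0.22 from 0.04.

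The tissues also differ in where these genes are expressed without the Yap1S5A vector. In GFP libraries Perp, Bbc3 and Bax were higher in liver and Ccng1 and Polk lower in liver, 5 of the 9 members tested, where 78.8% of 12865 genes were called (40% higher and 38.8% lower). The groups did not overlap for 6 of the 9, those 5 and Zmat3, against 74.4% of all genes tested. The log2 fold changes of liver over quadriceps were 5.64 ± 0.65 for Perp (edgeR adjusted p = 5.95e-05), 3.53 ± 0.22 for Bbc3 (3.46e-09) and 1.68 ± 0.31 for Bax (0.000392). They were -3.43 ± 0.16 for Ccng1 (1.73e-10) and -0.87 ± 0.15 for Polk (0.000138). Mdm2 at -0.05 ± 0.13 and Aen at -0.003 ± 0.17 were not called, nor were Zmat3 at 0.31 ± 0.14 (edgeR adjusted p = 0.0553) and Cdkn1a at 0.45 ± 0.39 (0.319). Without GFP liver replicate 1 Cdkn1a stood at 0.06 with an edgeR adjusted p of 0.862. Without GFP liver replicate 2 Zmat3 was called, at 0.35 with an edgeR adjusted p of 0.0476. Pmaip1 had 16 reads in GFP livers and 0 in GFP quadriceps and was not tested.

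Levels of different genes were compared as CPM per kilobase of exon, with TMM over all 16 libraries. In Yap1S5A-labelled livers Cdkn1a led at 31.3 ± 4.38 CPM per kilobase, followed by Perp at 27.99 ± 4.62, Ccng1 at 17.2 ± 3.05, Bax at 16.5 ± 4.14 and Mdm2 at 14.1 ± 0.714 (mean ± SD, n = 4 throughout). In GFP-labelled livers Perp led at 40.1 ± 4.68 CPM per kilobase, followed by Bax at 27.5 ± 15.2, Ccng1 at 24.4 ± 2.97, Cdkn1a at 23.1 ± 11.5 and Mdm2 at 19.3 ± 3.08. Each neighbour pair among these 5 overlapped in range in GFP-labelled livers, so the order of neighbours is not resolved. Perp did lie above Ccng1 and Mdm2 there, with its lowest library at 34.2 and their highest at 27.6 and 23.2 CPM per kilobase. In Yap1S5A-labelled livers Cdkn1a and Perp overlapped each other, as did Ccng1 with Bax and Bax with Mdm2, while Perp and Ccng1 did not. Below them in both liver groups came Aen, Bbc3, Polk, Zmat3 and Pmaip1. Aen and Bbc3 overlapped in each, at 5.37 ± 0.748 and 5.35 ± 0.901 CPM per kilobase in Yap1S5A-labelled livers and at 9.79 ± 2.58 and 6.26 ± 1.13 in GFP-labelled livers. Pmaip1 was last, at 1.56 ± 0.496 CPM per kilobase in Yap1S5A-labelled livers and 0.105 ± 0.113 in GFP-labelled livers.

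In quadriceps a single member stood over all others. Ccng1 was at 172 ± 14.8 CPM per kilobase in Yap1S5A-labelled quadriceps and 267 ± 19.2 in GFP-labelled quadriceps, far above Cdkn1a, at 22.4 ± 1.29 in Yap1S5A-labelled quadriceps and 17.2 ± 7.66 in GFP-labelled quadriceps, and Mdm2, at 19.3 ± 1.62 in Yap1S5A-labelled quadriceps and 20.2 ± 1.65 in GFP-labelled quadriceps. Cdkn1a and Mdm2 did not overlap in Yap1S5A-labelled quadriceps and overlapped in GFP-labelled quadriceps. Aen and Bax followed and overlapped each other in both groups, at 9.72 ± 0.516 and 8.28 ± 2.39 CPM per kilobase in Yap1S5A-labelled quadriceps and at 9.90 ± 0.654 and 8.68 ± 0.770 in GFP-labelled quadriceps. Polk was at 2.79 ± 0.611 CPM per kilobase in Yap1S5A-labelled quadriceps and 5.17 ± 0.952 in GFP-labelled quadriceps. Zmat3 was at 1.80 ± 0.112 in Yap1S5A-labelled quadriceps and 1.51 ± 0.147 in GFP-labelled quadriceps. Bbc3 and Perp, the next, overlapped in both groups and averaged under 1 CPM per kilobase.

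**Figure D4:**
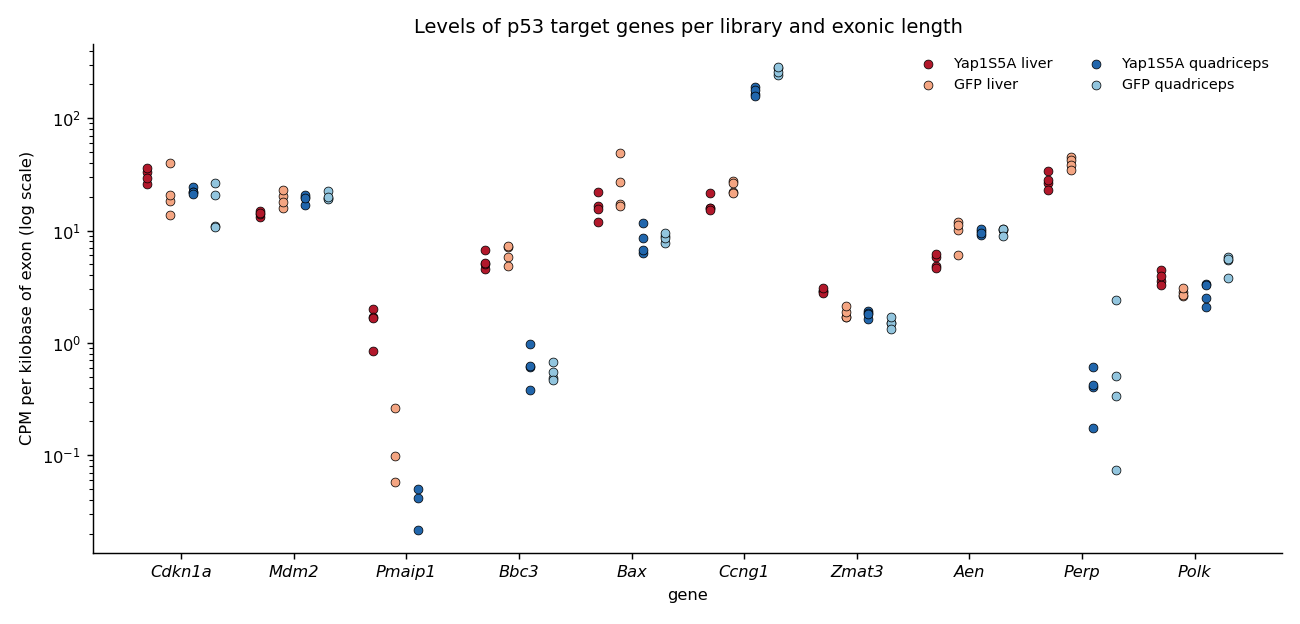
Level of each p53 target in each library as CPM per kilobase of exon (vertical log axis), by group. Values of 0, which only Pmaip1 had, cannot be drawn on this axis. Ccng1 in quadriceps, at group means of 172 and 267 CPM per kilobase, lies above every other member, and Perp and Bbc3 are lower in quadriceps than in liver.

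Cdkn1a had a higher coefficient of variation in CPM in GFP-labelled than in Yap1S5A-labelled libraries. It was 12.99% in Yap1S5A-labelled livers and 49.8% in GFP-labelled livers, and 5.09% in Yap1S5A-labelled quadriceps and 44.2% in GFP-labelled quadriceps. In GFP-labelled livers replicate 1 carried most of it, and the other 3 libraries had a coefficient of variation of 17.95%. In GFP-labelled quadriceps it was 39.3% without replicate 1, and in Yap1S5A-labelled quadriceps 2.04% without replicate 1. The difference in spread was not tested. The deposited sample sheet gives liver and quadriceps libraries of the same vector and replicate IDs that end in the same number, and does not say that the number marks an animal. With TMM over all 16 libraries, the GFP-labelled livers 1 to 4 stood at 80.6, 27.99, 36.97 and 41.9 CPM and the GFP-labelled quadriceps of the same numbers at 53.5, 22.2, 41.6 and 21.9 CPM. Replicate 1 was the highest in both tissues. The Yap1S5A-labelled livers stood at 52.9, 67.3, 59.8 and 73.4 CPM and the quadriceps of the same numbers at 49.1, 44.7, 44.6 and 42.9 CPM, where the lowest liver and the highest quadriceps were both replicate 1. With 4 libraries a group no relation between tissues was computed.

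**Figure D5:**
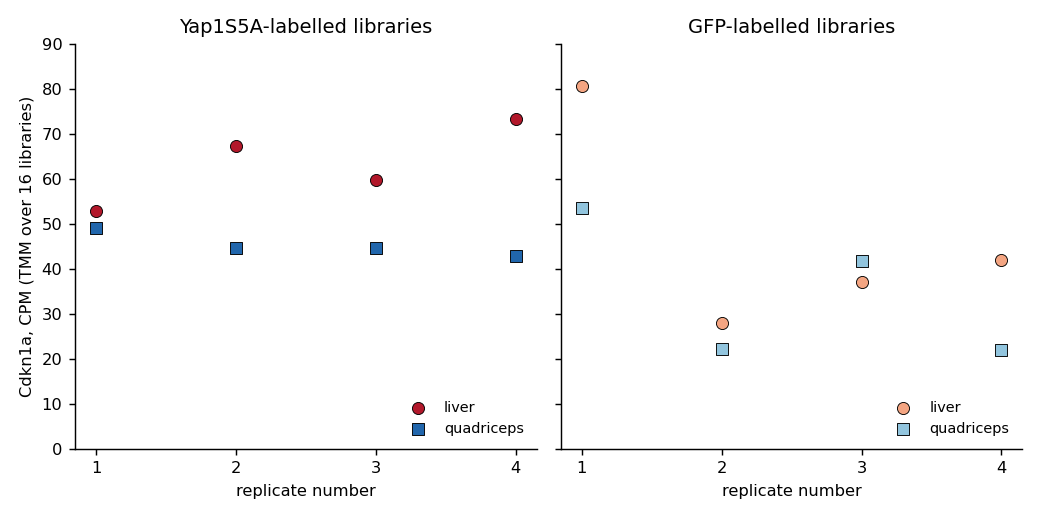
Cdkn1a in CPM (vertical axis, TMM over all 16 libraries) by replicate number, for Yap1S5A-labelled libraries on the left and GFP-labelled libraries on the right, with liver as circles and quadriceps as squares. GFP-labelled replicate 1 is the highest of its group in both tissues, at 80.6 CPM in liver and 53.5 CPM in quadriceps.

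The genes whose profile over the 16 libraries was most like that of Cdkn1a were Bcl9, Endov and Cacna1d, by the root mean square difference of centred log2(CPM + 0.5), which was 0.295, 0.322 and 0.342 log2 units among 13664 genes compared. Of the other members Zmat3 was the nearest to Cdkn1a, at 0.452 log2 units and rank 204. Mdm2 followed at 0.639 and rank 3186, and Perp was the farthest at 2.69 and rank 12779. The measure does not scale genes by their spread, so a gene that hardly varies can also lie near Cdkn1a.

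p53 itself and its regulators were read from a further list of 24 genes. Trp53 (chromosome 11, 69580359 to 69591873, plus strand), which encodes p53, stood at 26.01, 42.3, 36.7 and 41.2 CPM in Yap1S5A-labelled livers, against 19.96, 22.1, 24.8 and 23.6 CPM in GFP-labelled livers. All Yap1S5A-labelled livers were higher, with a log2 fold change of 0.69 ± 0.16 (edgeR adjusted p = 0.00160). In quadriceps Trp53 averaged 13.04 ± 0.878 CPM in Yap1S5A-labelled and 11.3 ± 1.63 CPM in GFP-labelled libraries, at a log2 fold change of 0.20 ± 0.13 (edgeR adjusted p = 0.374). The interaction for Trp53 was 0.49 ± 0.21 (edgeR adjusted p = 0.0643), and it was called without Yap1S5A-labelled liver replicate 1, GFP-labelled liver replicate 3 or GFP-labelled quadriceps replicate 1. Mdm4, a relative of Mdm2 that blocks p53 activity, was at 0.34 ± 0.14 in liver (edgeR adjusted p = 0.0505). Without GFP-labelled liver replicate 3 it was at 0.45 (edgeR adjusted p = 0.0118), and with the length trend removed at -0.13 (edgeR adjusted p = 0.463). Of the 24 regulators 10 rose and 3 fell in liver, with a median log2 fold change of 0.23, where 33.3% of all genes tested were called higher and 30.3% lower. The risers with the smallest p were Trp53bp1, Chek1 and Chek2, damage-signalling genes, at 1.05 ± 0.14, 3.55 ± 0.51 and 1.15 ± 0.21. Chek1 had 11 reads in all GFP-labelled livers, and Trp53bp1 stood at 0.56 with the length trend removed, where it kept its call. The 3 that fell were Usp10, a p53 deubiquitinase, at -1.20 ± 0.13, and the ribosomal protein genes Rpl11 and Rpl5, whose products bind Mdm2, at -0.79 ± 0.22 and -0.47 ± 0.16. Rpl11 stood at 0.19 once the length trend was removed, and Rpl5 lost its call then and without GFP-labelled replicate 3. In quadriceps 0 of the 23 tested rose in edgeR, where 3 were higher at an unadjusted p under 0.05 and DESeq2 called 1 higher. Of all genes tested in quadriceps, edgeR called 4.21% higher and 4.82% lower. Hipk2, a kinase of p53, fell at -0.61 ± 0.15, a call lost when Yap1S5A-labelled replicate 1, GFP-labelled replicate 2 or GFP-labelled replicate 4 was left out.

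Of 34 other p53 targets 13 rose and 9 fell in liver, with a median log2 fold change of 0.24. That is 22 of 34, against the 63.6% called among all genes tested in liver (33.3% higher and 30.3% lower), so these shares too are near the background. Apaf1, the scaffold of the apoptosome, averaged 23.03 ± 2.18 CPM in Yap1S5A-labelled livers, against 4.10 ± 0.556 CPM in GFP-labelled livers, a log2 fold change of 2.49 ± 0.16. Ckap2, a spindle gene, rose by 4.79 ± 0.32 on the log2 scale, on 18 reads in all GFP-labelled livers, so it could hardly be called lower. Gls2, the liver glutaminase, Ephx1, an epoxide hydrolase, and Cd82, a tetraspanin, fell, at log2 fold changes of -1.65 ± 0.19, -1.03 ± 0.15 and -0.71 ± 0.12. In quadriceps 0 of 29 rose in edgeR, where 4 were higher at an unadjusted p under 0.05 and DESeq2 called 1 higher. Of all genes tested in quadriceps, edgeR called 4.21% higher and 4.82% lower. There 2 fell, Steap3 at -0.47 ± 0.11 and Ei24 at -0.28 ± 0.08, and the Ei24 call was lost when any of the 8 libraries was left out.

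The partners of the members in each arm were read from 4 more lists, to be set against the same 33.3% higher and 30.3% lower among all genes tested in liver. The shares among all genes tested in quadriceps were 4.21% higher and 4.82% lower. Of 19 genes of the Bcl2 family and the apoptosome, partners of Bax, Bbc3 and Pmaip1, 6 rose and 4 fell in liver, with a median log2 fold change of -0.04. Bcl2, which restrains Bax, averaged 11.6 ± 1.34 CPM in Yap1S5A-labelled livers, against 1.34 ± 0.325 CPM in GFP-labelled livers, and Bcl2a1b, a relative found in blood cells, 4.85 ± 0.480 CPM in livers labelled Yap1S5A and 0.134 ± 0.0706 CPM in GFP-labelled livers. Bcl2a1b has near-identical copies in the genome, so its reads are uncertain. Cycs, which encodes cytochrome c, and Bik fell, at log2 fold changes of -1.51 ± 0.21 and -1.04 ± 0.26, and Bik lost its call with the length trend removed. In quadriceps Cycs fell at -0.59 ± 0.10.

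Of the 5 other inhibitors of cyclin-dependent kinases tested in liver, 3 rose, Cdkn3, Cdkn2c and Cdkn1c, at log2 fold changes of 5.29 ± 0.60, 1.52 ± 0.18 and 1.01 ± 0.37, and 0 fell, in edgeR, in DESeq2 and at an unadjusted p under 0.05. Cdkn3 had 2 reads in all GFP-labelled livers, and Cdkn1c lost its call without Yap1S5A-labelled replicate 2 or 4 or GFP-labelled replicate 1, 2 or 4. In quadriceps 0 of the 5 were called by edgeR or DESeq2, and 0 had an unadjusted p under 0.05. Of 8 genes of translesion synthesis, the pathway of Polk, 4 rose and 1 fell in liver, with a median log2 fold change of 0.48. Polq rose at 5.81 ± 0.58 on 2 reads in all GFP-labelled livers, Rad18, a ligase that modifies Pcna, at 2.42 ± 0.32 and Pcna, the sliding clamp, at 0.68 ± 0.14, and Rev1 fell at -0.56 ± 0.16. In quadriceps 0 of these 8 were called by edgeR or DESeq2, beside the fall of Polk, and 1 had an unadjusted p under 0.05.

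The cell cycle genes that p21 is known to hold down through the DREAM repressor complex all rose in liver, 30 of 30, with a median log2 fold change of 5.23, beside the Cdkn1a values above. Only 12 of the 30 passed the filter on low counts in the GFP liver and quadriceps comparison. Most of the list thus entered the liver test through the Yap1S5A-labelled livers and could hardly be called lower. The list was also chosen with earlier results of these data known, so the count of 30 is a description. Top2a, Mki67 and Mcm5 led by p, at 6.73 ± 0.21, 6.60 ± 0.25 and 4.87 ± 0.20, on 27, 54 and 52 reads in all GFP-labelled livers. In quadriceps 9 of the 30 could be tested, 3 fell and 0 rose, by edgeR, by DESeq2 and at an unadjusted p under 0.05. Of all genes tested there, edgeR called 4.82% lower and 4.21% higher. Aurka, E2f2 and Mcm2 were at -0.73 ± 0.17, -0.71 ± 0.18 and -0.58 ± 0.15 there. All these calls were lost without GFP-labelled replicate 4, that of E2f2 also without Yap1S5A-labelled replicate 1 or 2, and that of Mcm2 also without Yap1S5A-labelled replicate 3 or 4 or GFP-labelled replicate 3.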

How the data were processed

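Per the labels' protocols, total RNA of bulk tissue was extracted with QIAzol, treated with DNase and made into Ion Total RNA-Seq v2 libraries. The submitters' processing notes name STAR 2.4.2a, featureCounts of Subread 1.5.0 and build mm10, and the strand setting is not given in the sources used here. The authors deposited raw read counts per gene. They also deposited scaled counts (a signal value), used here only to recover library sizes as an alternative. The tests used edgeR 4.0.16 under R 4.3.3 (filterByExpr, TMM, robust glmQLFit and glmQLFTest, Benjamini-Hochberg over all genes tested, threshold 0.05), each tissue alone, with the interaction over 16 libraries. The SE is the log2 fold change over the square root of its F. DESeq2 1.42.0 was an alternative. The chi-square of replicate pairs, over its degrees of freedom, was 12.2 or more, so none was merged. No label or sheet states that replicates came from separate mice. If they did not, the p-values reflect spread between samples that may be technical. Named genes were all members, Trp53, Mdm4, up to 3 called genes per list, direction and tissue with the smallest p, and the 3 nearest profiles to Cdkn1a, and some genes that this rule names are not reported here. The members and lists were chosen with earlier results of these data known. Fits were tested on simulated data with far fewer changed genes than were called in liver, which does not test the scaling there. Gene models are from the deposited table, promoter stretches from RefSeq.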

Additional observations from a re-analysis of the deposited data

Results flagged for a closer look

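Ccng1 in Yap1S5A-labelled liver replicate 1 stood at 85.5 CPM, far above the other 3 libraries of its group, at 58.0 to 60.8 CPM. It was the single library that stood apart among 46 groups of 4 that were looked at, where chance marks about 1 in 20 groups.

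The vector difference in liver differed from that in quadriceps, by the interaction in edgeR, for 3 members. The differences in log2 fold change were 1.33 for Polk (adjusted p = 0.000103), -0.84 for Aen (adjusted p = 0.00432) and 0.40 for Zmat3 (adjusted p = 0.0481).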

How the results depend on the processing

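Each result was recomputed with other scaling factors, without the filter on low counts, with DESeq2, with the replicate block, with the length trend removed, with all 16 libraries in a single fit for the comparisons within a tissue or vector, and without each library in turn. Of the results for single genes 1262 kept direction and side of the threshold, 61 were no longer called, 22 became called and 35 changed sign, and the causes were not tested. With the length trend removed, 1 member was called higher in liver, the signs of Bax (0.034), Mdm4 (-0.13) and Rpl11 (0.19) turned there, and in the interaction those of Cdkn1a (-0.053), Pmaip1 (-0.0088), Ccng1 (-0.23), Zmat3 (-0.20) and Mdm4 (-0.40). In the interaction 1 member was called higher with RLE factors, the deposited library sizes, the length trend removed and DESeq2, and 2 were called lower with RLE factors, the length trend removed and DESeq2. Cdkn1a turned to -0.052 there with RLE factors and DESeq2. In GFP libraries 5 members were called higher in liver with all 16 libraries in a single fit, and Aen was at 4.85e-05 without the filter. RLE factors moved the interaction median of all genes to -0.07 from 0.04, and upper-quartile factors that of the GFP tissue comparison to -0.17 from 0.03.

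With the replicate number as a block, 1 member was called higher in the interaction, where Zmat3 stood at 0.40 (edgeR adjusted p = 0.0796), and Cdkn1a was called between GFP tissues, at 0.44 (edgeR adjusted p = 0.0300). In quadriceps 757 genes were called, E2f2, Ei24 and Mcm2 not among them, and no other call of a gene named here changed. The number is not stated to pair libraries. Within a tissue the block joins libraries of both vectors that share only a number. Their deviations correlated at -0.17 to 0.0551, and 0 of 8 libraries in either tissue correlated best with their own number. Between tissues of 1 vector the correlations were -0.0089 to 0.0866, and 6 of 8 Yap1S5A-labelled and 4 of 8 GFP-labelled libraries correlated best with their own number.

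Leaving out a library gave 7553 to 8088 genes called in liver (2 to 4 members higher, 4 to 5 lower), 602 to 1024 in quadriceps (0 higher, 2 lower), 6156 to 6811 in the interaction (1 to 2 higher, 1 to 2 lower) and 9858 to 10140 between GFP tissues (3 to 4 higher, 2 lower). The quadriceps count of 1094 fell to 602 without GFP replicate 4, 702 without Yap1S5A replicate 1 and 705 without Yap1S5A replicate 3. Signs turned, with these lowest and highest log2 values, in quadriceps for Mdm2 (-0.10 to 0.0028), Bax (-0.27 to 0.064), Aen (-0.064 to 0.013), Bbc3 (-0.027 to 0.44) and Perp (-1.40 to 0.38). In the interaction they turned for Cdkn1a (-0.21 to 0.45), Ccng1 (-0.17 to 0.20), Pmaip1 (-0.048 to 1.36) and Perp (-0.86 to 0.89), and between GFP tissues for Mdm2 (-0.14 to 0.037) and Aen (-0.10 to 0.18). Depth limits Pmaip1, and in quadriceps also Perp and Bbc3. The Cdkn1a coefficient of variation without each library was added after seeing the data.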
